A study of Mus musculus with 24 samples.

Results

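The transcripts described here are 35 genes that mark macrophages and leukocytes in general, followed in satellite cells and endothelial cells sorted from regenerating mouse muscle. They were chosen by gene symbol from the 23279 named genes of the array. Each of the 35 had 1 probe set, and 35 of 35 passed the filter on dim probe sets that left 14064 genes for testing. The tibialis anterior of mice was sampled uninjured (day 0) and 2, 4 and 8 days after injection of cardiotoxin, a venom toxin that destroys muscle fibres. The gate for satellite cells, the muscle stem cells, took CD45-, Sca1- and CD31- cells with alpha7 integrin and with low or clear CD34. The gate for endothelial cells took CD45- cells that carried Sca1, CD34 and CD31. Each cell type on each day is a group of 3 arrays, 24 arrays in 8 groups, and all groups share the digestion of the tissue, the CD45- gate and the amplification of 750 pg of total RNA. The strain, sex and age of the mice, and whether animals were pooled, are not given in the sources used here.

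Macrophages are phagocytes that enter injured muscle as blood monocytes, clear the debris of dead fibres and then support the growth of new ones. Monocytes leave the bone marrow and reach tissue through the chemokine receptor Ccr2 and carry Ly6C on their surface. As they mature into macrophages in the tissue they lose both and produce complement C1q, scavenging and lectin receptors such as Mrc1, and lipid and debris receptors such as Trem2. CD45, the protein of Ptprc, is on the surface of nearly all leukocytes, and both gates of this study left out cells that carry it. In sorted bulk cells, fewer cells of a type and less RNA per cell cannot be told apart.

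Values are log2 expression levels made by the authors with RMA. They ran from 1.29 to 12.88 over all probe sets, and array medians lay between 4.11 and 4.40. A gene is called where the adjusted p of limma's moderated test is under 0.05 and the log2 difference is at least 1, and the words rose and fell are kept for called genes. Beside a difference stands its standard error (SE) from the model, and beside a group mean the SD over 3 arrays. No fold is printed for a gene whose lower group mean is less than 1 above the array medians, since values near background compress. Levels of different probe sets cannot be set against each other. On each day satellite arrays had lower Cdh5 and Pecam1, both endothelial genes, and higher Itga7, the gene of alpha7 integrin, than endothelial arrays of that day, as titled and by limma's calls. The differences were smaller on day 2 than on day 0, at -1.80 (SE 0.33) against -3.71 (SE 0.33) for Cdh5 and 1.61 (SE 0.28) against 2.55 (SE 0.28) for Itga7. The contrast of the responses from day 0 to day 2 tests the change of such a gap, and its values for Cdh5 and Itga7 are not given here. Of 9 satellite cell and myoblast markers 7 were higher in satellite cells on day 0, 3 on day 2, 8 on day 4 and 9 on day 8. Their mean on day 2 was 4.97 ± 0.14 (SD, n = 3) on satellite arrays against 4.14 ± 0.14 on endothelial ones. The arrays did not overlap in this mean, at 4.84 to 5.11 against 4.03 to 4.29. Taken singly, most of these markers were not called higher in satellite cells then, which does not show equal levels.

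Some arrays stood apart within their groups. On satellite day 2, replicate 2 held the lowest value of its group for 35 of the 35 genes. On endothelial day 2, replicate 2 was lowest for 31 of them and replicate 1 highest for 31. On day 4, replicate 1 was highest for 31 genes in satellite cells and for 33 in endothelial cells. The mean over 10 endothelial markers moved the other way on satellite day 2, at 8.40 on replicate 2 against 6.52 and 6.76 on replicates 1 and 3. The part of this difference in the results was not tested.

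Before injury most of the 35 genes did not lie above the array median on every array of either cell type. In uninjured satellite cells 8 genes lay above the array median on all 3 arrays and 16 on none. In uninjured endothelial cells 13 lay above it on all 3 arrays and 10 on none. On satellite day 2 the number above the median on all arrays was 35, on day 4 it was 34 and on day 8 it was 27. In endothelial cells the same numbers were 26, 33 and 21. The group mean was highest on day 2 for all 35 genes in satellite cells. In endothelial cells it was highest on day 4 for 30 genes, on day 2 for 4 (Itgam, Itgb2, Plek and Coro1a) and on day 0 for Arhgdib. Between endothelial days 2 and 4 no gene was called, and the arrays overlapped for 31 of the 35 genes. The order of these 2 days is thus not resolved. No share of all genes is given for the counts in this paragraph.

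**Figure D1:**
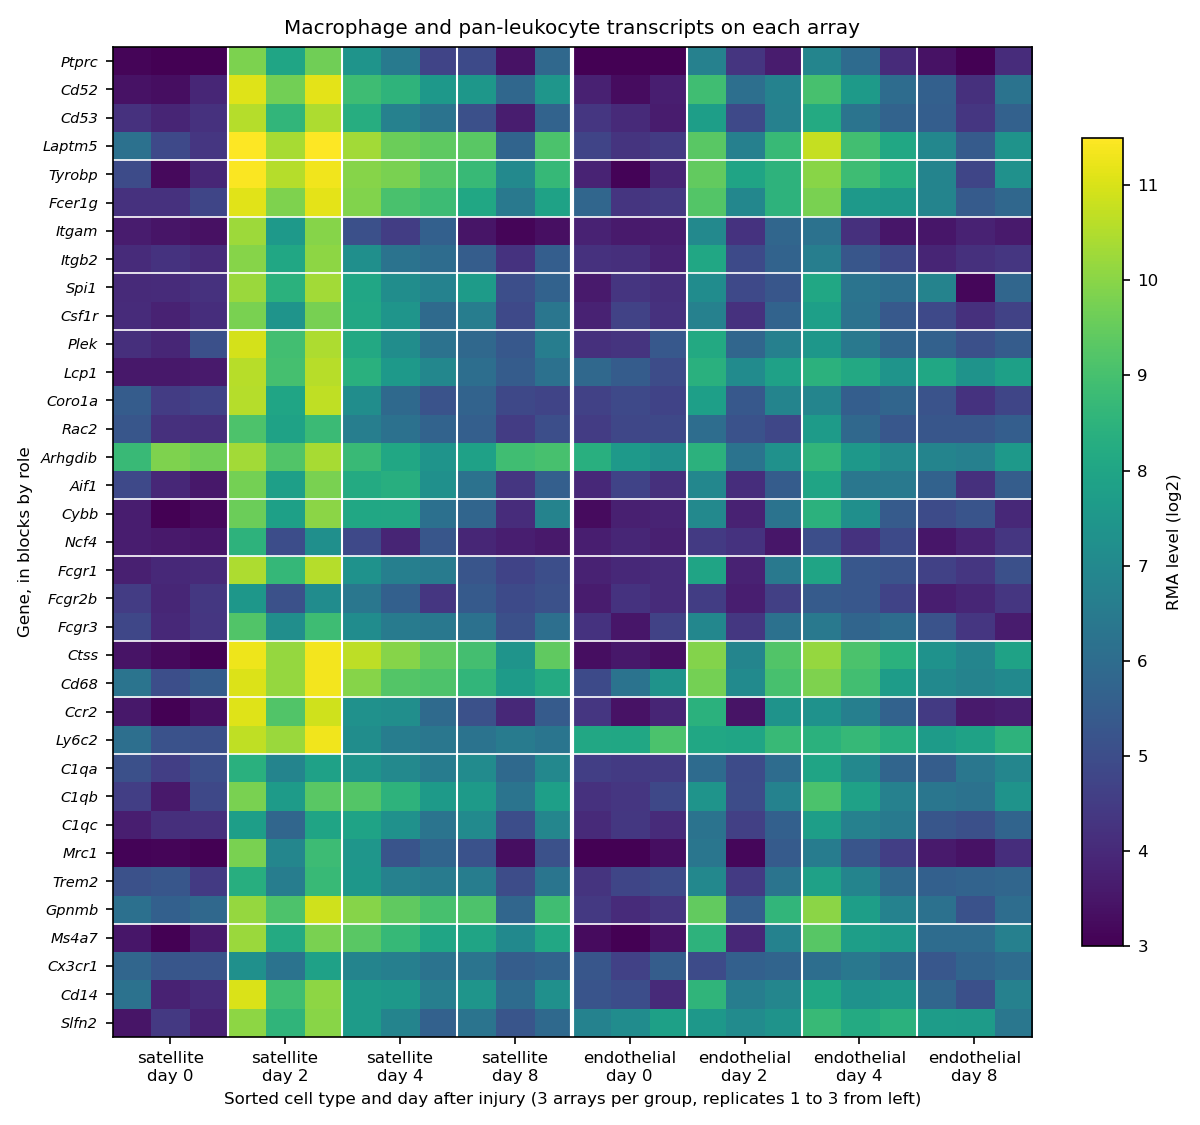
Log2 level of the 35 genes (grouped by role) on each of the 24 arrays, with arrays ordered by cell type, day and replicate and colour giving the log2 level. The satellite day 2 arrays are the brightest for most genes, replicate 2 is dimmer than the other two, and endothelial day 4 arrays are brighter than those of days 0 and 8.

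On day 2 nearly all of the genes rose in satellite cells. Of the 35 genes 34 were higher than on day 0 and none was lower, while 10.9% of all genes tested were called higher and 9.67% lower. The median log2 difference of the 35 was 5.30, against -0.03 for all genes tested. All 34 calls held when any of the 24 arrays was left out. On day 4, 30 of the 35 were higher than on day 0 and none lower, against 6.53% and 5.47% of all genes, with a median of 3.07, and 25 of the 30 calls held whichever array was left out. Cx3cr1, Itgb2, Ly6c2, Rac2 and Trem2 lost the day 4 call without satellite day 4 replicate 1, and all of these but Itgb2 also without other satellite arrays of day 0 or 4. On day 8, 13 were higher and none lower, against 4.38% and 2.00% of all genes, with a median of 1.76. The day 8 count dropped to 7 without satellite day 8 replicate 1 and to 8 without replicate 3 of the same group. C1qb, Cd52, Ctss, Fcer1g, Lcp1, Ms4a7 and Tyrobp were called on day 8 whichever array was left out. The other 6 lost the call without satellite day 8 replicate 1 and, but for Cd68, without replicate 3, and each also without some satellite array of day 0.

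Markers of other cell types moved in the same satellite arrays. Of the 9 satellite cell and myoblast markers 6 fell on day 2, and their mean went from 7.60 ± 0.03 (SD, n = 3) before injury to 4.97 ± 0.14 on day 2, 7.91 ± 0.32 on day 4 and 8.41 ± 0.30 on day 8. Chodl, a membrane lectin, fell by 6.88 (SE 0.50, adjusted p = 3.45e-09, limma) and Pax7, the transcription factor that defines satellite cells, by 4.10 (SE 0.37). All 8 pericyte and smooth muscle markers fell on day 2 and 7 on day 4, with means of 10.24 ± 0.45 on day 0, 7.21 ± 0.96 on day 2, 7.07 ± 0.13 on day 4 and 9.10 ± 0.47 on day 8. Of 10 endothelial markers 6 rose on each of days 2, 4 and 8, with means of 5.91 ± 0.07 on day 0 and 7.23 ± 1.02, 6.95 ± 0.32 and 7.43 ± 0.62 after injury. The part of these shifts in the levels of the 35 genes was not tested.

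Transcripts of the leukocyte surface proteins Ptprc, Cd52 and Cd53 were near background in uninjured satellite cells, while Laptm5 was at 4.33 to 6.16 there. Ptprc was at 3.13, 2.97 and 2.81 on the uninjured satellite arrays, at 9.82, 8.01 and 9.67 on day 2, at 7.39, 6.46 and 4.74 on day 4 and at 4.90, 3.41 and 5.86 on day 8. Every day 2 array lay above every array of the other days, and day 8 still lay above day 0 on each array. Ptprc was 6.20 (SE 0.79) higher on day 2 than on day 0 (adjusted p = 4.71e-06, limma), and on day 8 the difference of 1.76 (SE 0.79) missed the threshold (adjusted p = 0.191). Cd52, a small glycoprotein anchored in the leukocyte membrane, rose by 7.10 (SE 0.72) on day 2 and remained 3.38 (SE 0.72) above day 0 on day 8. Cd53, a tetraspanin, rose by 5.76 (SE 0.73) on day 2 and was 0.73 (SE 0.73) above day 0 on day 8, where it was not called. Laptm5, a lysosomal membrane protein of blood cells, was called on each of the 3 days, with differences of 6.30, 4.63 and 2.92 (SE 0.84 for each).

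The signalling adaptors and integrins of myeloid cells also rose on day 2. Tyrobp, which encodes the adaptor DAP12 used by Trem2 and other receptors, was at 4.94, 3.21 and 3.92 on the uninjured satellite arrays, 11.44, 10.57 and 11.33 on day 2, 9.96, 9.79 and 9.22 on day 4 and 8.73, 7.00 and 8.71 on day 8. The 4 days did not overlap. Fcer1g, the gamma chain that signals for Fc receptors, rose by 6.33 (SE 0.64) on day 2 and was still 3.07 (SE 0.64) above day 0 on day 8. Itgam, the alpha chain of the CD11b integrin, was at 3.65, 3.49 and 3.37 before injury, 10.26, 7.59 and 9.96 on day 2, 5.07, 4.54 and 5.62 on day 4 and 3.48, 3.10 and 3.35 on day 8. Its day 8 arrays overlapped those of day 0, and all of them lay below every array median. Itgb2, the beta chain that pairs with it, rose by 5.25 (SE 0.63) on day 2 and by 2.38 (SE 0.63) on day 4, and its day 8 difference of 0.98 was not called.

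Spi1 encodes PU.1, the transcription factor that drives the myeloid lineage, and Csf1r encodes the receptor for the growth factor on which macrophages depend. Spi1 was at 4.01, 4.06 and 4.20 on the uninjured satellite arrays, 10.23, 8.44 and 10.33 on day 2, 8.02, 7.16 and 6.77 on day 4 and 7.67, 5.05 and 5.67 on day 8. The rise on day 2 was 5.58 (SE 0.80, adjusted p = 1.96e-05, limma), that on day 4 was 3.22 (SE 0.80), and day 8 was not called. Csf1r rose by 4.99 (SE 0.70) on day 2 and 3.15 (SE 0.70) on day 4. Replicate 2 was the lowest array of day 2 for both genes, at 8.44 and 7.41.

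PU.1 binds DNA with the core GAGGAA, so the promoters of the 35 genes were searched for these letters on both strands. RefSeq promoters (GRCm38.p6) were matched by gene for 26 of the 35 genes, the exceptions being Tyrobp, Csf1r, C1qa, Itgb2, Cd52, Rac2, Spi1, Cd14 and Ncf4. In the 250 bases before the start, 16 of the 26 genes (61.5%) held the core in at least 1 promoter, against 6986 of 27025 genes in the table (25.9%). Counted by promoter, the numbers were 18 of 34 (52.9%) against 7639 of 32851 (23.3%). The motif TGANTCA, bound by AP-1, was in 4 of the 26 genes (15.4%), against 7.82% of all genes. No overlap between the motifs was sought. The last 120 bases before the start are shown for 3 genes that fell in satellite cells between days 2 and 4 (Itgam, Plek and Fcgr1) and for 2 that were not called there (C1qb and Trem2), each written 5′ to 3′ on the gene's strand with the core or its reverse complement TTCCTC in capitals.
Itgam (chr7:128062520-128062639, plus strand): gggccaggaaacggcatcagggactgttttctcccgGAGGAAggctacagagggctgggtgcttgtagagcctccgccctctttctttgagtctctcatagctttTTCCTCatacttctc
Plek (chr11:17008719-17008838, minus strand): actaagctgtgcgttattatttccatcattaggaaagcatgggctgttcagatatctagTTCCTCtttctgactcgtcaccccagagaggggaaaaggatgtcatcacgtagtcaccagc
Fcgr1 (chr3:96293970-96294089, minus strand): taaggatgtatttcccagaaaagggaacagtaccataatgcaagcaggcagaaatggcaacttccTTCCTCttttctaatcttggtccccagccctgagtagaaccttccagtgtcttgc
C1qb (chr4:136886201-136886320, minus strand): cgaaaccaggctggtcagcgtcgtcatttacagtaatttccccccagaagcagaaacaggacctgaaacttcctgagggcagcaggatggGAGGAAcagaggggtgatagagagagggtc
Trem2 (chr17:48346281-48346400, plus strand): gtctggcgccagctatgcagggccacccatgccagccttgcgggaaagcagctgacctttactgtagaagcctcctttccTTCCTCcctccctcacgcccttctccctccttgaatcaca
The matches lay at -84 and -15 for Itgam, -61 for Plek, -55 for Fcgr1, -30 for C1qb and -40 for Trem2, counted in bases from the start. The core was in promoters of genes called and not called between days 2 and 4, and a match is a description of the sequence and not a binding site. Every sequence shown was taken from a gene with a match. Genes without a match included Ccr2, Coro1a, Lcp1 and Slfn2, which fell between these days. Gpnmb, Ms4a7, Cx3cr1, Cybb, Fcer1g and Fcgr2b, which were not called there, had no match either.

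The regulators of the actin skeleton, by which leukocytes crawl and engulf, did not all behave alike. Lcp1, which bundles actin, was at 3.55, 3.56 and 3.61 on the uninjured satellite arrays, 10.60, 8.99 and 10.58 on day 2, 8.41, 7.61 and 6.95 on day 4 and 6.06, 5.47 and 6.18 on day 8. No 2 days overlapped. It was called on each day, with rises of 6.49, 4.09 and 2.33 (SE 0.43 for each). Plek, a kinase C substrate of platelets and leukocytes, rose by 5.73 (SE 0.61) on day 2 and 2.78 (SE 0.61) on day 4. Aif1, the IBA1 protein of macrophages, rose by 4.99 and 3.80 (SE 0.67 for each) on the same days. Coro1a, a coronin of leukocytes, rose by 4.85 (SE 0.64) on day 2 but was not called on day 4, at 1.18 (SE 0.64). Rac2, the Rac GTPase of blood cells, rose by 4.08 and 1.64 (SE 0.48 for each).

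Arhgdib was the gene that did not rise. It was at 8.77, 9.85 and 9.67 on the uninjured satellite arrays, 10.32, 9.19 and 10.38 on day 2, 8.75, 8.07 and 7.41 on day 4 and 7.88, 8.90 and 9.03 on day 8. Days 0 and 2 overlapped, with a difference of 0.53 (SE 0.53, adjusted p = 0.511, limma). The gene was thus well above background in cells where Ptprc was at 2.81 to 3.13. Over the 24 arrays Arhgdib had the lowest correlation with Ptprc of the 35 genes, r = 0.52, followed by Ly6c2 at 0.57 and Slfn2 at 0.66, where the arrays share days and groups.

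The phagocyte oxidase makes superoxide in the phagosome. Cybb, its membrane subunit, was at 3.68, 2.76 and 3.20 on the uninjured satellite arrays, 9.59, 7.83 and 10.03 on day 2, 8.06, 8.10 and 6.14 on day 4 and 5.76, 4.08 and 6.81 on day 8. The arrays of day 8 lay above those of day 0, but the difference of 2.34 (SE 0.83) was not called. Ncf4, a cytosolic subunit, rose by 3.32 (SE 0.54) on day 2, where its arrays spread over 8.51, 5.00 and 7.24, and was at 4.89, 3.88 and 5.26 on day 4, where it was not called. Of the Fc gamma receptors, which bind antibody, the high-affinity Fcgr1 rose by 5.99 (SE 0.75) on day 2 and 2.93 (SE 0.75) on day 4. Fcgr3 rose by 4.03 and 2.31 (SE 0.56 for each). The inhibitory Fcgr2b rose by 2.32 (SE 0.49) on day 2 and was not called on day 4, at 1.17.

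Of the lysosomal genes, Ctss, which encodes cathepsin S, was called on each day. It was at 3.46, 3.20 and 2.92 on the uninjured satellite arrays, 11.27, 10.15 and 11.35 on day 2, 10.64, 9.95 and 9.44 on day 4 and 8.96, 7.39 and 9.41 on day 8. The lowest day 8 array lay far above the highest array of day 0, which lay below every array median, and the rises were 7.73, 6.82 and 5.39 (SE 0.62 for each). Cd68, a lysosomal glycoprotein of macrophages, was above background already in uninjured satellite cells, at 6.27, 5.04 and 5.49, and reached 11.06, 10.17 and 11.36 on day 2. That is a 38.4-fold difference, and on days 4 and 8 the folds were 14.4 and 5.85.

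The monocyte genes peaked sharply on day 2 in satellite cells. Ccr2, the receptor for monocyte chemoattractants, was at 3.54, 3.02 and 3.34 before injury, 11.08, 9.19 and 10.88 on day 2, 7.29, 7.20 and 5.94 on day 4 and 5.11, 3.98 and 5.45 on day 8. The rise on day 2 was 7.08 (SE 0.83, adjusted p = 1.51e-06, limma), and day 8 was not called, at 1.55 (SE 0.83). Ly6c2, which encodes the Ly6C antigen of monocytes, was at 6.10, 5.14 and 5.08 before injury, 10.67, 10.23 and 11.31 on day 2, 7.17, 6.59 and 6.36 on day 4 and 6.23, 6.53 and 6.30 on day 8. Its 3 arrays of day 2 lay far above the other 9, with a 39.3-fold rise on day 2 (5.30, SE 0.34, adjusted p = 5.78e-10). On day 4 the difference from day 0 was 1.27 (SE 0.34), a 2.41-fold rise.

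The 6 mature macrophage genes rose on day 2 as well, and all 6 were still above day 0 on day 4. C1qa, C1qb and C1qc encode the chains of the complement component C1q. C1qb was at 4.59, 3.58 and 4.85 on the uninjured satellite arrays, 9.78, 7.67 and 9.34 on day 2, 9.21, 8.50 and 7.63 on day 4 and 7.63, 6.27 and 7.79 on day 8. Days 2 and 4 overlapped, and day 8 lay above day 0 on every array. Its rises were 4.59, 4.10 and 2.89 (SE 0.66 for each) on the 3 days. C1qa rose by 2.80, 2.09 and 1.77 (SE 0.49 for each) and C1qc by 3.17, 3.15 and 2.31 (SE 0.57 for each), so the 3 C1q genes were called on each day. On day 8 the call of C1qb held whichever array was left out. Without satellite day 8 replicate 1, C1qa was at 1.55 (adjusted p = 0.099, limma) and C1qc at 1.94 (adjusted p = 0.0697).

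Gpnmb, a transmembrane glycoprotein of phagocytes, was at 6.14, 5.62 and 5.88 on the uninjured satellite arrays, 10.17, 9.12 and 10.88 on day 2, 9.97, 9.41 and 9.04 on day 4 and 9.12, 5.82 and 8.90 on day 8. Replicate 2 of day 8 was the only array of that group within the range of day 0. Gpnmb rose 18.1-fold on day 2 and 12.1-fold on day 4, and its day 8 difference of 2.07 (SE 0.88) was not called. Trem2, a receptor for lipids and debris, rose by 2.93 (SE 0.60) on day 2 and 1.98 (SE 0.60) on day 4. Mrc1, the mannose receptor, was at 3.08, 3.10 and 3.00 before injury, 9.80, 6.90 and 8.83 on day 2, 7.45, 5.20 and 5.73 on day 4 and 5.13, 3.33 and 5.10 on day 8. It rose by 5.45 (SE 0.75) on day 2 and 3.07 (SE 0.75) on day 4.

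Of the remaining myeloid genes, Ms4a7, a membrane protein of macrophages, was called on each day with rises of 6.02, 5.30 and 4.32 (SE 0.75 for each). Its satellite arrays were at 3.50, 3.01 and 3.63 before injury, 10.21, 8.18 and 9.80 on day 2, 9.32, 8.69 and 8.01 on day 4 and 7.97, 7.04 and 8.09 on day 8, so that day 8 lay well clear of day 0. Cx3cr1, the fractalkine receptor, had the smallest called rise on day 2, 3.24-fold, and a 2.20-fold rise on day 4. Cd14, the co-receptor for bacterial lipopolysaccharide, rose by 5.30, 2.59 and 2.20 (SE 0.65 for each). Slfn2, a schlafen family gene of immune cells, rose by 5.62, 2.81 and 1.90 (SE 0.48 for each).

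**Figure D2:**
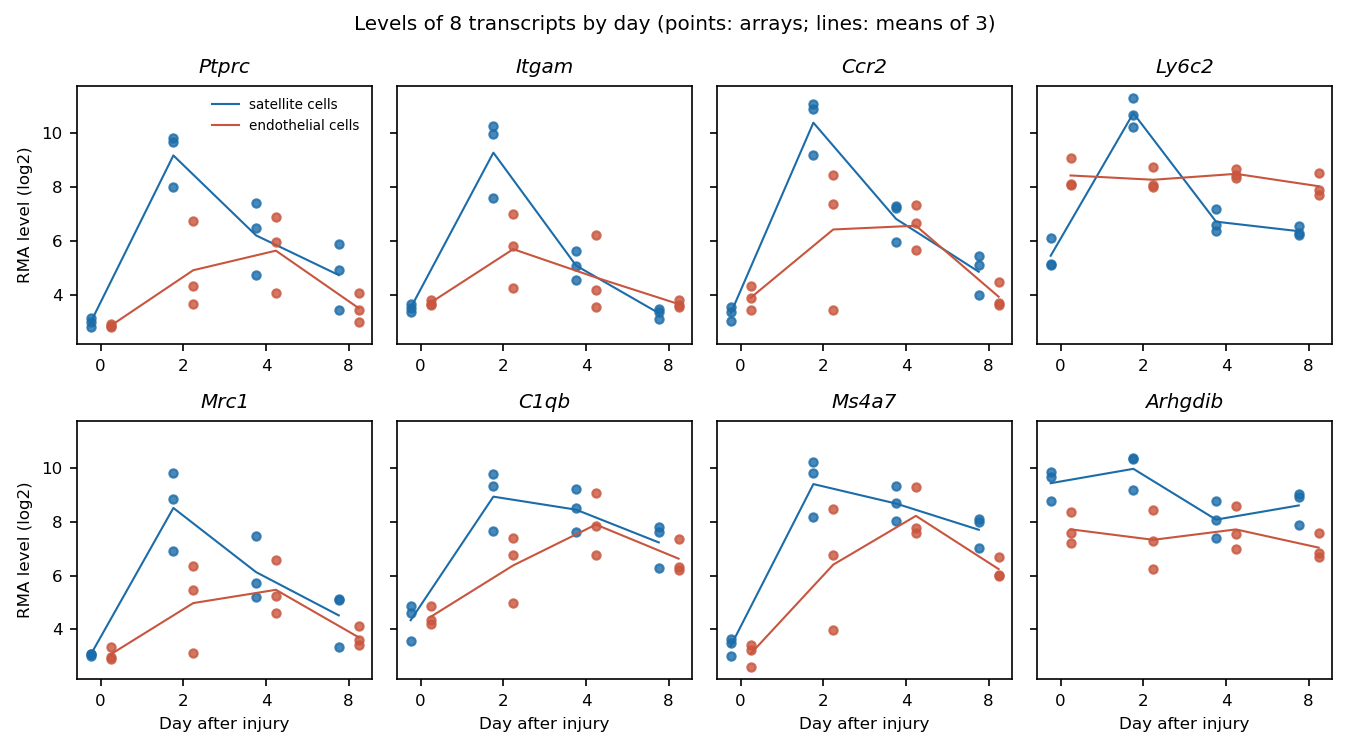
Log2 level of 8 of the genes by day after injury, with satellite and endothelial arrays as separate points and a line through each group mean of 3 arrays (the days are evenly spaced on the axis). In satellite cells Ccr2, Ly6c2, Itgam and Ptprc drop between days 2 and 4, the day 4 arrays of C1qb and Ms4a7 overlap those of day 2, and Ly6c2 and Arhgdib already lie above background on day 0.

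From day 2 to day 4 in satellite cells both monocyte genes fell, while 5 of the 6 mature macrophage genes were not called. Of the 35 genes 18 fell and none rose, against 5.76% of all genes called lower and 4.79% higher, with a median of -1.88 against 0.03 for all genes tested. Ly6c2 fell by 4.03 (SE 0.34, adjusted p = 5.47e-08, limma), a 16.3-fold difference, and Ccr2 fell by 3.57 (SE 0.83, adjusted p = 0.00518), an 11.9-fold difference. Both are monocyte genes, and the day 4 arrays of both lay below all day 2 arrays. Itgam fell by 4.19 (SE 0.65, adjusted p = 0.000137) and Coro1a by 3.67 (SE 0.64, adjusted p = 0.000443). Fcgr1, Ptprc, Plek, Itgb2, Slfn2, Cd53, Cd14, Rac2, Lcp1, Cd52, Ncf4, Arhgdib and Fcgr3 fell by between 3.06 and 1.72.

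Of the 6 mature macrophage genes only Mrc1 was called, with a fall of 2.38 (SE 0.75, adjusted p = 0.0388). The other 5 differed by -0.01 (SE 0.57) for C1qc, -0.48 (SE 0.66) for C1qb, -0.58 (SE 0.88) for Gpnmb, -0.71 (SE 0.49) for C1qa and -0.95 (SE 0.60) for Trem2, with adjusted p from 0.351 to 0.992. Ms4a7, Ctss and Cx3cr1 were not called either, at -0.72, -0.91 and -0.56. A difference that misses the threshold does not show that the level was kept. Ccr2 minus the mean of the 6 macrophage genes, taken on each array, was 2.01 ± 0.05 (SD, n = 3) on satellite day 2 and -0.71 ± 0.48 on day 4. It was -1.22 ± 0.15 before injury and -1.59 ± 0.38 on day 8, and the day 2 arrays lay between 1.95 and 2.04 although replicate 2 was the dimmest in each of the 35 genes. In endothelial cells the same value was -0.31 ± 0.50 before injury, 0.38 ± 1.36 on day 2, -0.49 ± 0.34 on day 4 and -1.65 ± 0.66 on day 8. Its endothelial day 2 arrays spread from -1.17 to 1.38 and overlapped those of days 0 and 4, so the shift seen in satellite cells was not resolved there. Ccr2 lay below every array median in uninjured satellite cells, so the value of that group sets a level at background against the macrophage genes. Only the change of this value between groups can be read, since it sets different probe sets against each other. A fall of this kind was not particular to the monocyte genes. On the log2 scale Ccr2 kept 49.6% of its day 2 rise on satellite day 4, against 52.1% for Ptprc and 27.3% for Itgam. By this share Ccr2 ranked 25 and Ly6c2 34 among 34 genes, Arhgdib left out. Of the mature macrophage genes C1qc ranked 1, C1qb 2, Gpnmb 5, C1qa 9, Trem2 13 and Mrc1 20, the last with 56.3% kept. Genes of other roles lay between them, with Ctss at 3, Ms4a7 at 4, Tyrobp at 6 and Fcer1g at 7. The shares carry no SE, and their order was not tested.

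The count of 18 dropped to 10 without satellite day 2 replicate 1. Ccr2, Coro1a, Fcgr1, Itgam, Itgb2, Lcp1, Ly6c2, Plek, Rac2 and Slfn2 were called lower whichever array was left out. Mrc1 and Ptprc were among the 8 that lost their call for some array, and without satellite day 2 replicate 1 the fall of Mrc1 was 1.73 (adjusted p = 0.215) and that of Ptprc 2.64 (adjusted p = 0.0732). From day 4 to day 8 only Lcp1 was called, with a fall of 1.76 (SE 0.43, adjusted p = 0.0367), against 0.519% of all genes called lower and 1.16% higher. That count was 0 without satellite day 4 replicate 1 or 2 or day 8 replicate 2 or 3, and 2 without satellite day 2 replicate 2, satellite day 8 replicate 1, endothelial day 2 replicate 1 or 2, or endothelial day 4 replicate 1. For 34 of the 35 genes the difference from day 4 to day 8 was negative, with a median of -1.23.

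**Figure D3:**
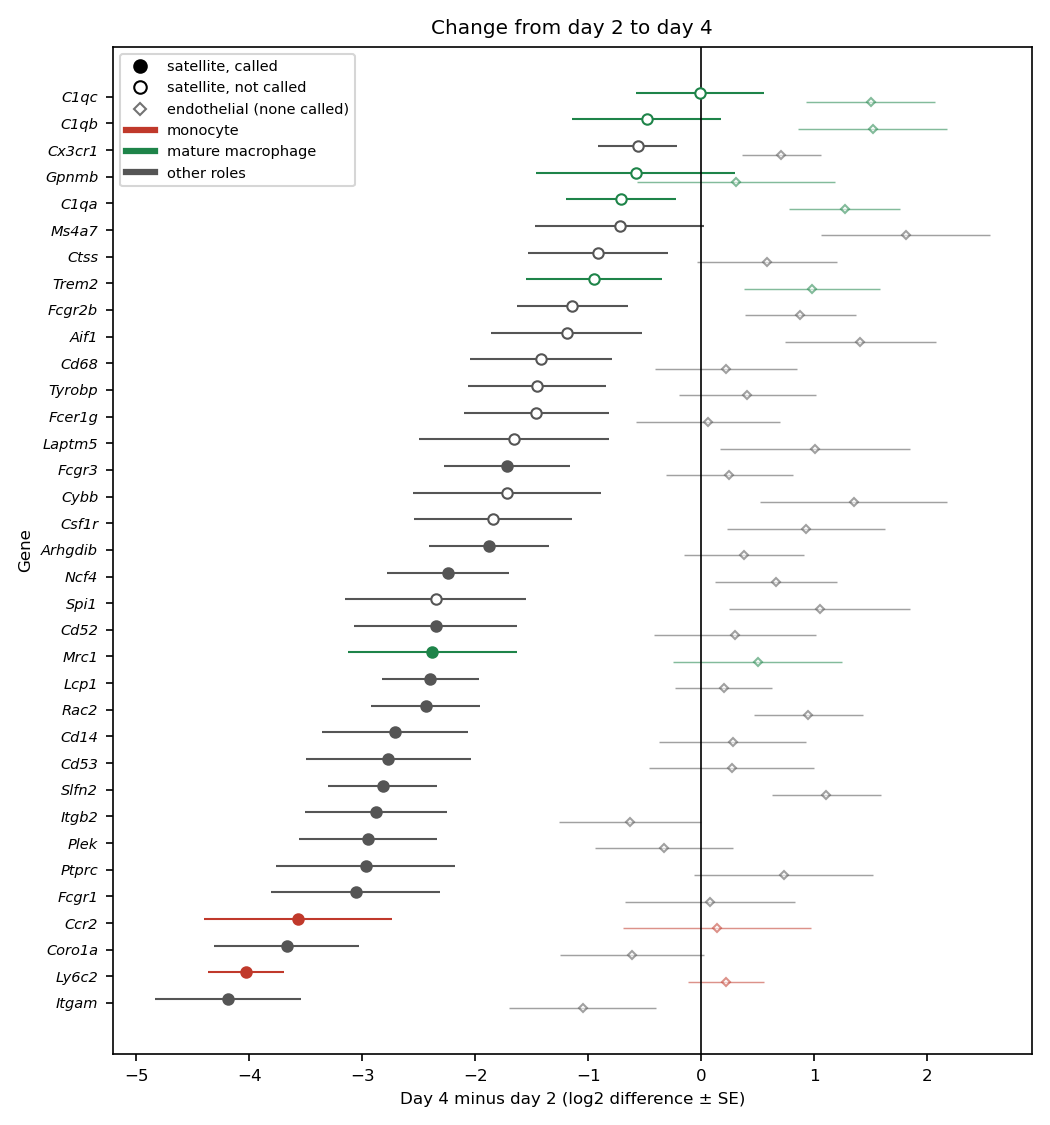
Log2 difference between day 4 and day 2 (± SE of the fit) for each of the 35 genes, as circles for satellite cells, filled where called, and diamonds for endothelial cells, none of which was called. In satellite cells Itgam and Ly6c2 lie lowest and C1qc lies at -0.01, while most endothelial values lie above 0.

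In endothelial cells 13 of the 35 genes rose on day 2 and 20 on day 4. On day 2 the 13 higher genes stood against 3.73% of all genes (3.01% lower), with a median of 1.99. On day 4 the 20 stood against 3.11% (2.22% lower), with a median of 2.57. On day 8, 4 were higher, against 1.11% (0.946% lower), with a median of 0.80, and these were Ctss, Ms4a7, Tyrobp and Lcp1. None was lower on any of these days. The day 2 count was 6 without endothelial day 2 replicate 1 and 21 without replicate 2. The day 4 count was 11 without endothelial day 4 replicate 1 and 12 without endothelial day 0 replicate 1, and the day 8 count was 2 without endothelial day 0 replicate 2 or day 8 replicate 3. Cd52, Ctss, Fcer1g, Laptm5, Lcp1 and Tyrobp on day 2, and Ctss and Lcp1 on day 8, were called whichever array was left out.

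The spread between endothelial replicates was wide for these genes. The median SD of the 35 was 1.27 on endothelial day 2 and 0.94 on day 4, against 0.27 and 0.26 for all genes tested. Ctss was at 3.30, 3.55 and 3.35 on the uninjured endothelial arrays, 9.91, 6.86 and 9.20 on day 2, 10.17, 9.10 and 8.44 on day 4 and 7.32, 6.88 and 7.90 on day 8. Each injured array lay above all uninjured ones, and the rises were 5.25, 5.84 and 3.97 (SE 0.62 for each). Tyrobp rose by 5.05, 5.46 and 2.69 (SE 0.61 for each), the last not being called without endothelial day 0 replicate 2 or day 8 replicate 1 or 3. Ptprc was at 2.84, 2.78 and 2.89 before injury, 6.75, 4.32 and 3.64 on day 2, 6.88, 5.97 and 4.04 on day 4 and 3.43, 2.99 and 4.07 on day 8, and it was called on day 4 only (2.79, SE 0.79, adjusted p = 0.0363, limma). It lost that call without any of the 3 endothelial arrays of day 0 or without day 4 replicate 1 or 2, where its adjusted p reached 0.195.

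The C1q genes were among those called on endothelial day 4 and not on day 2. C1qb was at 4.21, 4.33 and 4.85 on the uninjured endothelial arrays, 7.40, 4.97 and 6.76 on day 2, 9.08, 7.85 and 6.75 on day 4 and 6.33, 6.20 and 7.35 on day 8. The arrays of days 2 and 4 overlapped. Its differences from day 0 were 1.91 (SE 0.66, adjusted p = 0.0759) on day 2 and 3.43 (SE 0.66, adjusted p = 0.00242) on day 4. C1qa and C1qc rose on day 4 by 2.41 (SE 0.49) and 2.84 (SE 0.57), and these calls held whichever array was left out. Gpnmb rose on both days, by 3.62 and 3.93 (SE 0.88 for each), but was at 9.46, 5.57 and 8.59 on day 2, with replicate 2 far below the others. Without replicate 1 of the group, Gpnmb was not called on day 2 (2.83, adjusted p = 0.0839) or on day 4 (3.02, adjusted p = 0.0646). Ccr2 was at 4.33, 3.42 and 3.88 before injury, 8.44, 3.44 and 7.37 on day 2, 7.33, 6.67 and 5.67 on day 4 and 4.45, 3.61 and 3.70 on day 8. It was called on no day in endothelial cells, with differences of 2.54 (SE 0.83, adjusted p = 0.0592) and 2.68 (SE 0.83, adjusted p = 0.0564) on days 2 and 4, and replicate 2 of day 2 lay at the level of day 0.

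Between successive days no gene was called in endothelial cells. From day 2 to day 4 the count was 0 of 35, against 0.263% of all genes called higher and 0.107% lower. An unadjusted p under 0.05 (limma) was reached by 6 of the 35, a looser cut for which no share of all genes is given. The median difference was 0.50, with 31 of the 35 differences positive, among them those of Ms4a7 at 1.81 (SE 0.75), C1qb at 1.52 (SE 0.66), C1qc at 1.50 (SE 0.57) and Aif1 at 1.41 (SE 0.67). From day 4 to day 8 the count was 0, against 0.0924% of all genes called lower and 0.0284% higher. The looser cut, an unadjusted p under 0.05 (limma), was reached by 21 of the 35, again with no share of all genes to set beside it. All 35 differences were negative, with a median of -1.56, and without endothelial day 2 replicate 2 the count lower was 1.

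Ly6c2, Slfn2, Lcp1 and Arhgdib were the genes that differed between the 2 cell types before injury. Ly6c2 was at 8.10, 8.08 and 9.09 on the uninjured endothelial arrays, 8.08, 7.99 and 8.72 on day 2, 8.43, 8.68 and 8.34 on day 4 and 7.68, 7.89 and 8.50 on day 8. The days overlapped throughout, and the differences from day 0 were -0.16, 0.06 and -0.40 (SE 0.34 for each). Slfn2 was at 6.77, 7.13 and 7.83 on the uninjured endothelial arrays and was not called on any later day, with differences of 0.10, 1.20 and 0.01 (SE 0.48 for each). Lcp1 was at 5.86, 5.46 and 4.96 before injury, 8.41, 7.11 and 7.88 on day 2, 8.46, 8.13 and 7.40 on day 4 and 8.07, 7.37 and 7.82 on day 8. It rose by 2.37, 2.57 and 2.32 (SE 0.43 for each) and, unlike in satellite cells, lay at about the same level on the 3 injured days.

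Ly6c1, the near copy of Ly6c2 that endothelial cells carry, was at 8.20 ± 0.38 (SD, n = 3) in uninjured endothelial cells and 2.30 ± 0.48 in uninjured satellite cells. On satellite day 2, where Ly6c2 stood at 10.23 to 11.31, Ly6c1 was at 3.60 ± 0.62, a difference from day 0 of 1.31 (SE 0.56, adjusted p = 0.0903, limma). Whether the probe set of Ly6c2 separates the copies in endothelial cells was not tested, so the endothelial level of Ly6c2 is uncertain.

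Satellite cells were compared with endothelial cells on each day. Before injury 1 of the 35 genes was higher in satellite cells, against 7.59% of all genes, and 3 were lower, against 9.43%. Arhgdib was higher by 1.71 (SE 0.53, adjusted p = 0.0217, limma), and it lost the call without satellite day 0 replicate 2 or 3 or endothelial day 0 replicate 2 or 3. Slfn2 was lower by 3.34 (SE 0.48), Ly6c2 by 2.98 (SE 0.34), a 7.91-fold difference, and Lcp1 by 1.86 (SE 0.43).

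On day 2, 33 of the 35 were higher in satellite cells and none lower, against 5.82% of all genes called higher and 6.31% lower, with a median of 2.84. The differences were 4.26 (SE 0.79) for Ptprc, 3.96 (SE 0.83) for Ccr2, 3.92 (SE 0.80) for Spi1 and 3.83 (SE 0.75) for Fcgr1. C1qc, at 1.69 (SE 0.57, adjusted p = 0.0509), and Gpnmb, at 2.18 (SE 0.88, adjusted p = 0.108), were not called. With 1 array left out at a time the count lay between 25 and 35, and with the 2 groups fitted on their own it was 13. C1qb, Cd14, Cd68, Ctss, Cybb, Fcer1g, Laptm5, Ms4a7 and Trem2 lost the call without endothelial day 2 replicate 2 or satellite day 2 replicate 1 or 3.

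On day 4 no gene was higher in satellite cells, against 5.20% of all genes, and 2 were lower, against 7.73%. Those 2 were Ly6c2, lower by 1.78 (SE 0.34, 3.43-fold), and Slfn2, lower by 1.73 (SE 0.48, 3.31-fold), which lost its call without endothelial day 4 replicate 1 or satellite day 4 replicate 3. The other 33 were not called, and 29 of the 35 differences were positive, with a median of 0.46. Examples are 0.09 (SE 0.49) for C1qa, 0.25 (SE 0.83) for Ccr2, 0.98 (SE 0.64, adjusted p = 0.352, limma) for Fcer1g and 1.01 (SE 0.67) for Aif1. Gpnmb had a difference of 1.29 (SE 0.88). Of the 33, 8 lay further from 0 than their own SE, and a missed threshold does not show that the cell types were alike.

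On day 8, 2 genes were higher in satellite cells, against 7.05% of all genes, and 3 were lower, against 6.88%. Tyrobp was higher by 1.85 (SE 0.61) and Arhgdib by 1.57 (SE 0.53). Lcp1 was lower by 1.85 (SE 0.43), Ly6c2 by 1.67 (SE 0.34) and Slfn2 by 1.45 (SE 0.48), and Slfn2 lost its call without replicate 1 or 2 of endothelial day 8 or replicate 2 or 3 of satellite day 8. The count of genes higher was 4 without endothelial day 2 replicate 2, 1 without endothelial day 2 replicate 3, satellite day 8 replicate 1 or endothelial day 8 replicate 1, and 0 without satellite day 8 replicate 3 or endothelial day 8 replicate 2.

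Whether satellite cells responded to injury more than endothelial cells was tested as an interaction. The rise from day 0 to day 2 was larger in satellite cells for 21 of the 35 genes and smaller for none, against 6.44% of all genes called higher and 5.03% lower, with a median of 3.04. Slfn2 (5.53, SE 0.67), Ly6c2 (5.46, SE 0.48), Ccr2 (4.54, SE 1.17), Ptprc (4.13, SE 1.12) and Lcp1 (4.12, SE 0.61) were among these genes. Slfn2, Ly6c2 and Lcp1 already differed before injury, at 7.24, 8.42 and 5.43 in endothelial against 3.91, 5.44 and 3.57 in satellite cells. That gap enters their contrasts. The contrast of Ly6c2 also rests on its uncertain endothelial level. Of the mature macrophage genes only Mrc1 was called, at 3.54 (SE 1.07, adjusted p = 0.0337, limma), and C1qb was at 2.68 (SE 0.93, adjusted p = 0.0671). The count was 9 without satellite day 2 replicate 1, satellite day 2 replicate 3 or endothelial day 2 replicate 2, 13 without satellite day 0 replicate 2, and 31 without satellite day 2 replicate 2. Aif1, Ccr2, Itgam, Lcp1, Ly6c2, Ncf4, Plek, Rac2 and Slfn2 were called whichever array was left out, and Ptprc and Mrc1 were not.

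The change from day 2 to day 4 was more negative in satellite than in endothelial cells for 5 genes and less so for none, against 2.97% of all genes called lower and 2.43% higher, with a median of -2.63. These were Ly6c2 (-4.25, SE 0.48), Slfn2 (-3.92, SE 0.67), Rac2 (-3.39, SE 0.68), Ncf4 (-2.90, SE 0.77) and Lcp1 (-2.60, SE 0.61). Here too the value of Ly6c2 rests on its uncertain endothelial level. The count was 8 without endothelial day 4 replicate 3, 10 without satellite day 4 replicate 1, 19 without endothelial day 2 replicate 1 and 25 without satellite day 2 replicate 2. Ncf4 lost its call for 7 of the arrays left out, and the other 4 kept theirs throughout. Ccr2 was at -3.71 (SE 1.17, adjusted p = 0.0667, limma). For the responses on days 4 and 8 against day 0, 0 genes were called in limma. Of all genes, 2.00% and 1.39% were called higher and 2.24% and 0.811% lower. On each day 3 genes had an unadjusted p under 0.05 (limma), a looser cut for which no share of all genes is given. For the change from day 4 to day 8, 0 were called in limma, against 0.114% of all genes called higher and 0.107% lower. At the looser cut there was 1.

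The levels of the 35 genes moved together between satellite and endothelial arrays that share a day and a replicate number. The mean over the 35 genes was 9.99, 8.22 and 9.90 on satellite day 2 replicates 1, 2 and 3, and 7.57, 5.29 and 6.60 on the endothelial arrays of the same numbers. On day 4 it was 8.01, 7.32 and 6.77 in satellite cells and 8.03, 6.84 and 6.27 in endothelial cells. On day 8 it was 6.57, 5.31 and 6.51 in satellite cells and 5.62, 5.10 and 5.77 in endothelial cells. Thus on days 2 and 4 the replicates of the 2 cell types stood in the same order, and on day 8 replicate 2 was lowest in both.

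Over the 9 injured pairs of arrays, with each group centred on its mean, the median correlation was 0.79 across the 35 genes, with a range from -0.14 to 0.94. It exceeded 0.5 for 30 of the 35 (85.7%), against 16.1% of all genes tested, whose median was 0.06. These are descriptions over 9 points that share days, and the labels do not say that equal numbers come from the same animals.

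**Figure D4:**
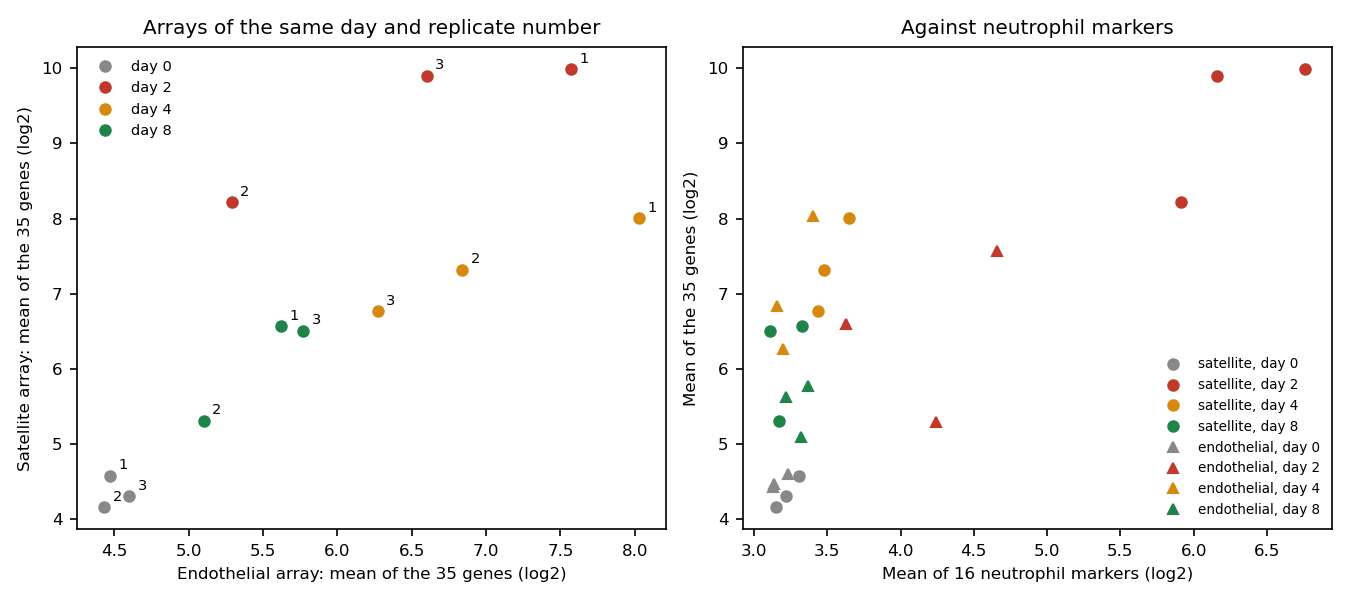
Left, mean log2 level of the 35 genes on each satellite array against the endothelial array of the same day and replicate number. Right, mean log2 level of the 35 genes on each array against the mean of 16 neutrophil markers on that array, with days by colour and cell type by symbol. On days 2 and 4 replicate 1 is highest in both cell types, and satellite day 2 arrays stand apart in the neutrophil mean, at 5.91 to 6.76.

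Markers of other leukocytes were measured beside these genes. Of 16 neutrophil markers on the array 10 were tested, and 9 rose on satellite day 2, with a median of 4.87. Of all genes tested, 10.9% were called higher then. A marker could pass the filter through the 3 satellite day 2 arrays alone, so this count and median are in part set by the filter. The array means that follow cover all 16. S100a8 rose by 8.71 (SE 0.57), S100a9 by 7.61 (SE 0.52) and Il1r2 by 5.88 (SE 0.33). The mean of the 16 was 3.15 to 3.31 on the uninjured satellite arrays, 5.91 to 6.76 on day 2, 3.44 to 3.65 on day 4 and 3.11 to 3.33 on day 8. Only S100a8 was still above day 0 on satellite day 4 (2.33), when 30 of the 35 genes were. Between days 2 and 4, 9 neutrophil markers fell in satellite cells, against 5.76% of all genes called lower, with the same limit from the filter. Ly6g, the defining surface marker of mouse neutrophils, was at 3.42 ± 0.71 (SD, n = 3) on satellite day 2, below the array medians. In endothelial cells 4 of the 10 rose on day 2 and none on day 4, and the array means were 3.63 to 4.66 and 3.16 to 3.40.

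Neutrophils also express Itgam, Itgb2, Coro1a, Ncf4 and many pan-leukocyte genes, and their part in the satellite day 2 levels of these genes was not tested. Lymphocyte and mast cell markers were low. Of 13 T and NK cell markers 6 were tested and only Gzma rose, by 1.90 (SE 0.68) on satellite day 2. Of 4 B cell markers 1 was tested and was not called, and none of the 5 mast cell markers passed the filter. Of 8 dendritic cell markers 4 were tested, and only Itgax, which macrophages share, rose on satellite day 2, by 2.07 (SE 0.48). Of 5 erythroid and platelet markers 4 were tested. On satellite day 2 only Pf4 and Ppbp of these rose, by 5.42 (SE 0.79) and 2.54 (SE 0.54). In endothelial cells Ppbp fell by 2.67 (SE 0.54) on day 4. Which cells carried these transcripts was not tested.

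Further monocyte and macrophage genes, a list of 50 of which 45 were on the array and 40 were tested, were measured beside the 35. On satellite day 2, 36 of the 40 were higher than on day 0, with a median of 3.89, on day 4, 14 with a median of 1.11, and on day 8, 3. Of all genes tested, 10.9%, 6.53% and 4.38% were called higher on these days. As for the neutrophil markers, the filter could be passed through the satellite day 2 arrays alone. Between days 2 and 4, 29 fell, with a median of -2.37. Lilrb4a, an inhibitory receptor of myeloid cells, rose by 7.27 (SE 0.49) on satellite day 2, Plac8 by 6.68 (SE 0.74) and Clec4d, a C-type lectin, by 6.01 (SE 0.46). In endothelial cells 9 rose on day 2 and 7 on day 4, whereas 13 and 20 of the 35 did. The mean of the 45 was 5.23 ± 0.63 (SD, n = 3) on endothelial day 2 and 5.19 ± 0.55 on day 4. Genes of the list that rose there included Lilrb4a by 4.81 (SE 0.49) and the scavenger receptor Msr1 by 2.70 (SE 0.71) on day 2 and Mpeg1, a pore-forming protein of macrophages, by 3.31 (SE 0.73) on day 4. The rise on day 2 was larger in satellite cells for 23 of the 40.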

How the data were processed

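The report rests on 24 single-colour arrays of amplified RNA, grouped by their titles. The deposited table holds log2 values that the authors made with RMA (background correction, quantile normalization and a summary per probe set), per the submitters' processing notes and the values themselves. Its version, the genome build and the annotation are not given in the sources used here. Gene symbols came from the array's annotation, which names 23281 of 24479 probe sets, and 1198 have none. Every table column was assigned to a sample (0 columns unused).

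A gene was tested if it lay above its own array's median on at least 3 arrays. The model, fitted to all arrays with limma 3.58.1 under R 4.3.3, had a mean for each group and 16 residual degrees of freedom, and p-values were adjusted by Benjamini-Hochberg over 14064 genes. The steps were tested on simulated data. Alternatives were another filter, array weights, fits of the compared groups alone, blocks of replicate number or of file number, and leaving out each array. The file number is carried by the file names, and the titles do not say what it marks.

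The named genes are all 35 members and, of other lists, at most 3 called per cell type. Named outside this rule are Ly6c1, as the near copy of Ly6c2, and Cdh5, Pecam1, Itga7 and Pax7, as a check of the labels. Ly6g was also named outside it. Members and lists were chosen with earlier results of these data known. Titles name biological replicates and say no more, so p-values measure the spread between these arrays. Separate label fields contradict the titles on the cell type in 12 samples and on the day in 18, match on both in 2, and were not used. Same-numbered arrays of a day correlated at -0.06 to 0.20 over all genes, with 4 of 12 pairs over 0.1, so numbers were not taken as pairs. Arrays are numbered in the order of the days, and these effects cannot be told apart. The number of arrays limits the precision.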

Additional observations from a re-analysis of the deposited data

Results flagged for a closer look

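The response to injury differed between satellite and endothelial cells for 21 of the 35 genes from day 0 to day 2, by limma's interaction contrast over all genes tested (adjusted p from 5.09e-07 to 0.0406). Satellite minus endothelial log2 differences of the pan-leukocyte surface genes were 4.13 for Ptprc, 3.44 for Cd52 and 3.32 for Cd53. The adaptor Fcer1g was at 2.95, and the integrin chains Itgam and Itgb2 at 3.78 and 3.08. The lineage regulator Spi1 was at 3.85 and the growth factor receptor Csf1r at 3.69. Of the actin regulators, Lcp1 was at 4.12, Aif1 at 3.77, Rac2 at 3.47, Plek at 3.44 and Coro1a at 2.92. The oxidase subunits Cybb and Ncf4 were at 3.86 and 3.04, the Fc receptor Fcgr1 at 3.86 and the lysosomal Cd68 at 2.84. The monocyte genes Ly6c2 and Ccr2 were at 5.46 and 4.54, the macrophage gene Mrc1 at 3.54, and Slfn2 at 5.53. Ly6c2, Slfn2 and Lcp1 already differed between the cell types before injury, and the endothelial level of Ly6c2 is uncertain.

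From day 2 to day 4 the change differed for 5 genes, with adjusted p from 1.67e-05 to 0.0298 in limma. The differences were -4.25 for Ly6c2, whose endothelial level is uncertain, -3.92 for Slfn2, -3.39 for Rac2, -2.90 for Ncf4 and -2.60 for Lcp1.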

How the results depend on the processing

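No difference called in the main fit or under an alternative changed direction between them. Differences called in neither were not checked for a change of sign. Leaving out both day 2 arrays numbered 2, chosen after the data were seen, gave 23 genes higher on endothelial day 2, 6 higher in satellite cells on day 8, 4 and 1 lower from day 4 to day 8 in satellite and endothelial cells, 1 lower on satellite day 4 and 15 for the response from day 2 to day 4. A replicate block, which treats equal numbers as pairs, gave 20 higher on endothelial day 2, 5 higher in satellite cells on day 8, 4 and 2 lower from day 4 to day 8 and 17 for the response from day 2 to day 4, and moved no other count by over 1.5 times. The block of file number gave 9 for that response. Array weights gave 33 for the response on day 2, 24 for that from day 2 to day 4, 2 and 1 lower from day 4 to day 8, and 1 lower on satellite day 4. Fitting only the groups compared gave 13 higher in satellite cells on day 2, 2 on day 0, 4 on day 8, 8 higher on endothelial day 2, 7 on endothelial day 8 and 3 for the response from day 2 to day 4. No filter gave 13 for the response on day 2, 0 higher in satellite cells on day 8 and 0 lower from day 4 to day 8 in satellite cells; a filter at the median plus 1 gave 2 there and 8 for the response from day 2 to day 4.

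With 1 array left out at a time, counts higher than day 0 ranged from 34 to 34, 25 to 32 and 7 to 15 in satellite cells and 6 to 21, 11 to 26 and 2 to 5 in endothelial cells on days 2, 4 and 8. Counts lower ranged from 10 to 22 for satellite day 4 against day 2, 0 to 2 for day 8 against day 4, and 0 to 1 for the latter in endothelial cells. Counts higher in satellite cells ranged from 0 to 1, 25 to 35 and 0 to 4 on days 0, 2 and 8, and lower from 1 to 2 on day 4 and 2 to 3 on day 8. The response counts ranged from 9 to 31 on day 2 and 4 to 25 from day 2 to day 4. With 3 arrays a group and levels near background on day 0, small rises cannot be resolved, and a rise from background may be understated.

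Over all genes tested, 37 of 418 counts under the other settings moved by over 1.5 times. Fitting only the groups compared moved the higher and lower counts from 819 to 338 and from 887 to 447 between cell types on day 2, from 673 to 337 and from 810 to 298 for satellite day 4 against day 2, from 163 to 34 and from 73 to 22 for satellite day 8 against day 4, and from 37 to 0 and from 15 to 0 for endothelial day 4 against day 2. It moved the counts for the response from day 2 to day 4 from 342 to 199 and from 417 to 193, and the genes lower on satellite day 8 from 281 to 164. Array weights raised that response to 742 and 971, the response on day 4 from 281 to 508 and from 315 to 539, that on day 8 from 196 to 323 and from 114 to 189, the lower count for that on day 2 from 708 to 1089, and the counts for endothelial day 8 from 156 to 238 and from 133 to 221. They also raised satellite day 8 against day 4 to 287 and 125, and endothelial day 4 against day 2 to 110 and 44. Without both day 2 arrays numbered 2, the lower count for the response from day 2 to day 4 was 774 and that for endothelial day 4 against day 2 was 29. The other moved counts started from at most 16 genes. By correlation, 13 of 24 arrays lay closest to an array of their own number among those of other groups, a hint from the data and not the design.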
